A study of Mus musculus with 21 samples.

Results

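The change in gene expression between postnatal day 7 (P7) and postnatal day 14 (P14) was compared between Glast+ and Notch1+ cells of the mouse retina. The measure was the interaction, the P14 minus P7 difference in Glast+ cells minus the same difference in Notch1+ cells, on the log2 scale of normalized array intensity. A value above 0 means that a gene moved upward more, or downward less, in Glast+ cells. The comparison uses 11 of the series' 21 arrays, chosen by the sort and age in their titles: 2 of Glast+ P7, 3 of Glast+ P14, 3 of Notch1+ P7 and 3 of Notch1+ P14. All cells came from C57BL/6 retinas, and the labels give no other allele and no treatment for any of the 4 groups. Cells were captured on magnetic microbeads through a biotin-conjugated antibody against the surface protein. The submitters class the Notch1+ cells as retinal progenitors and the Glast+ cells at these ages as precursors of Müller glia or Müller glia. Each group is stated to hold independent biological replicates, and the labels give no purity of the sorts.

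Notch1 is a receptor that, once a ligand such as Dll4 on a neighbouring cell binds it, is cleaved and releases a fragment that turns on repressors of the Hes and Hey families. In the retina this keeps progenitors from becoming neurons, and it favours Müller glia, the last cell class that progenitors make. The pathway also acts in growing blood vessels, which spread through the mouse retina during the first postnatal weeks. Glast (Slc1a3) is a glutamate transporter of radial and Müller glia.

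The capture proteins were bright in both sorts at P7. Slc1a3 had a mean level of 15.90 in Glast+ P7 and 15.69 in Notch1+ P7, and Notch1 had a mean level of 15.26 in Glast+ P7 and 14.90 in Notch1+ P7. Both sorts also carried transcripts of other cells. Among defining markers of vessels, Pecam1 stood at 15.23 in Notch1+ P14 and 11.09 in Glast+ P14, while Kdr stood at 12.98 and 12.99. Of the microglial markers, Cx3cr1 stood at 15.00 in Glast+ P14 and 10.72 in Notch1+ P14. Rod markers were also bright, with Sag at 15.01 in Notch1+ P7 and Gnat1 at 15.68 in Glast+ P14. In such bulk samples more cells of a type and more RNA per cell cannot be told apart. Kcnj10, a Müller potassium channel, was not matched to a probe.

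The scanner software found 68.5% to 73.8% of transcript probes on the Glast+ arrays and 56.7% to 80.1% on the Notch1+ arrays. Probes at or below local background made up 0.769% to 1.22% on Glast+ arrays and 11.4% to 32.5% on Notch1+ arrays. Precision is limited by how few arrays each group has. All Glast+ arrays were scanned on 1 day and the Notch1+ arrays on 2 other days. Scan day therefore coincides with sort, and for a difference in level the 2 cannot be told apart, but each sort's own change lies within its days. Replicate 3 of Notch1+ P14 stood apart from its group (r = 0.936 and 0.955 across probes). Gadd45g, Hes5 and Fabp7 were among the genes whose level on this array lay closer to P7 than on the other 2 arrays. Counts that it moved by over 1.5 times are for the most part also given without it, as are some calls that turned on it.

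In a limma model over all 8 groups of the series, 1899 of 12612 genes (15.1%) had an interaction at a Benjamini-Hochberg adjusted p under 0.05, the threshold for every call here. The interaction was above 0 for 1011 genes (8.02%) and below 0 for 888 (7.04%). In Glast+ cells 3462 genes changed, 1764 upward (14%) and 1698 downward (13.5%). In Notch1+ cells 3548 genes changed, 1810 upward (14.4%) and 1738 downward (13.8%). These shares of all genes are the background for the list counts below. With the authors' own values, whose median interaction over all genes was −0.12 against −0.02, the calls split into 736 above and 1243 below 0, and with median scaling into 337 and 447. The Glast+ calls split into 1539 upward and 2394 downward with the authors' values, and with cyclic loess into 1962 and 821 in Glast+ and 2264 and 1345 in Notch1+ cells. With Notch1+ arrays taken from scan day 2 only, so that each sort lay within 1 scan day, 1093 genes were called. That fit dropped replicate 2 of Notch1+ P7 and of Notch1+ P14. It left 2 arrays in each of these groups, with replicate 3 of Notch1+ P14 among them. A fit of all arrays with scan day as a block called 2334 genes. Leaving out Notch1+ P14 replicate 3 gave 3014 (1628 above and 1386 below 0), of which 1826 were also called with it. Without Glast+ P7 replicate 1 it was 1156, and without Glast+ P7 replicate 2 it was 972.

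Movement in a shared direction was the more frequent outcome. Of the 1407 genes that changed in both sorts, 751 rose in both, 537 fell in both and 119 moved in opposite directions with a called interaction. These 119 opposite movers were 0.944% of genes tested, 44 of them (0.349%) rising in Glast+ cells and falling in Notch1+ cells, and 75 (0.595%) doing the reverse. This split was 29 and 102 with the authors' values and 58 and 47 with cyclic loess. With each sort within 1 scan day 61 genes were opposite movers, and without Notch1+ P14 replicate 3 the number was 257, split into 120 and 137. Among named genes that became opposite movers without that array were Btg2, Jun, Bmpr1b, Crybb1, Mt2, Ccn1 and Wnt5a. Each of these rose in Glast+ cells and fell in Notch1+ cells. Over all 12612 genes the signs of both changes were the same for 65.8%, and the changes correlated with Pearson's r = 0.50 and Spearman's rho = 0.44 across genes, which are not independent replicates. The 2 changes share no array. Among the 1011 interactions above 0, 538 came from genes that rose in Glast+ cells with no call in Notch1+ cells, 251 from genes that fell in Notch1+ cells with no call in Glast+ cells, and 134 from genes that rose in both. Among the 888 below 0, 388 came from genes that rose in Notch1+ cells with no call in Glast+ cells and 363 from genes that fell in Glast+ cells with no call in Notch1+ cells.

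**Figure D1:**
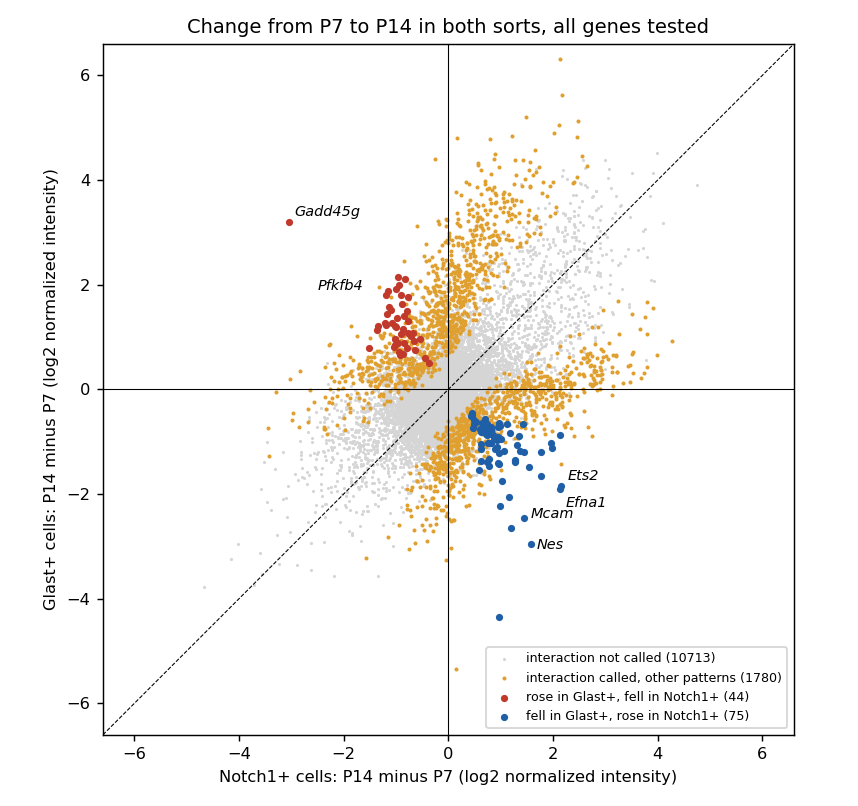
Change from P7 to P14 in Notch1+ cells (horizontal axis) and in Glast+ cells (vertical axis), both as log2 differences of normalized intensity, with 1 point per gene; the dashed line marks equal changes. The 44 red and 75 blue opposite movers lie in the upper left and lower right of the plot, and Gadd45g stands farthest from the other red points.

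Opposite movers that rose in Glast+ cells had a median change of 1.20 there, a median change of −0.95 in Notch1+ cells and a median interaction of 2.24. In 33 of the 44 the P7 and P14 arrays did not overlap within either sort, and 14 changed by over 1 on the log2 scale in both. Calls on these same arrays define the group, so these counts describe it and are no separate support. The share of all genes without overlap was not counted. The named genes of this group encode a stress-inducible cell cycle protein (Gadd45g), regulators of glycolysis (Pfkfb4 and Hk2), ion channel subunits (Kcnab2 and Cacna1g), an adhesion protein (Amigo1), signalling proteins (Sh3bp2, Cd72 and Arl4c) and a mitochondrial nucleotide carrier (Slc25a33).

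Gadd45g, known to slow the cell cycle and to accompany neuronal commitment, had the largest interaction of all named genes. In Glast+ cells its log2 level was 10.67 and 11.24 at P7 and 14.55, 13.78 and 14.14 at P14. Its Notch1+ level was 14.31, 14.60 and 14.78 at P7 and 9.94, 10.81 and 13.80 at P14. Every Glast+ array was higher at P14 than at P7, and every Notch1+ array was lower, although Notch1+ P14 replicate 3 stayed close to the P7 arrays. The rule that named the gene required that the ages not overlap. The gene thus rose 9.22-fold in Glast+ cells (adjusted p = 0.00756, limma) and fell 8.24-fold in Notch1+ cells (adjusted p = 0.00492), an interaction of 6.25 ± 1.10 (SE, adjusted p = 0.00128). The interaction was 7.39 without Notch1+ P14 replicate 3. Within 1 scan day per sort it was 5.87, and the Notch1+ fall missed the threshold there (adjusted p = 0.0896).

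Pfkfb4, a bifunctional enzyme that sets the level of the glycolytic activator fructose 2,6-bisphosphate, read 10.77 and 10.91 in Glast+ P7 and 12.52, 12.97 and 12.42 in Glast+ P14. On Notch1+ arrays its level was 10.76, 10.83 and 10.59 at P7 and 9.55, 8.78 and 10.27 at P14. The sorts thus overlapped at P7 and were apart at P14 on every array. Its interaction was 2.99 ± 0.39 (adjusted p = 0.000126), and all 3 calls with opposite signs held under each of 24 alternative settings. Hk2, a hexokinase that starts glycolysis, went the same ways (1.76 in Glast+ cells, −0.78 in Notch1+ cells, interaction 2.54 ± 0.38, adjusted p = 0.000414). Its Notch1+ arrays overlapped, at 13.25, 13.55 and 12.55 at P7 against 12.64, 11.82 and 12.56 at P14, and the opposite call ended under 7 of 24 alternatives.

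Kcnab2, a beta subunit of voltage-gated potassium channels, rose by 1.23 in Glast+ cells and fell by 1.19 in Notch1+ cells (interaction 2.42 ± 0.34, adjusted p = 0.000209). Amigo1, an adhesion protein that also associates with potassium channels, was at 9.60 and 9.55 in Glast+ P7 and at 10.72, 10.94 and 10.84 in Glast+ P14. Its Notch1+ values were 10.43, 10.12 and 9.83 at P7 and 8.61, 8.52 and 9.63 at P14. The order of the sorts for Amigo1 was therefore turned between the ages, with Notch1+ cells higher at P7 and Glast+ cells higher at P14 on every array. Its interaction was 2.47 ± 0.40 (adjusted p = 0.000716), and the Notch1+ fall was not called within 1 scan day. Sh3bp2, an adaptor of immune cell signalling (2.34 ± 0.31, adjusted p = 0.000137), and Slc25a33 (1.99 ± 0.26, adjusted p = 0.000119) kept their opposite calls under 23 of 24 alternatives, as did Kcnab2.

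Less stable calls were made for Cd72, a lectin-type receptor of B cells and macrophages (interaction 2.35 ± 0.44), Arl4c, a small GTPase (2.24 ± 0.45), Smim10l2a (2.21 ± 0.38, with 1 other probe at −0.01) and Fzd5, a Wnt receptor of the developing eye (1.84 ± 0.35, other probe 0.25). The opposite call of Cacna1g, a T-type calcium channel, held under 7 of 24 alternatives. With the replicate number as a block its rise in Glast+ cells had an adjusted p of 0.0724.

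The 75 genes that fell in Glast+ cells and rose in Notch1+ cells had median changes of −0.95 and 0.88 and a median interaction of −1.86. In 72 of them the P7 and P14 arrays did not overlap within either sort, and 19 changed by over 1 in both. These counts too follow in part from the calls that define the group. The named genes of this group include those of the endothelial adhesion molecule Mcam, the ligand Efna1, the transcription factor Ets2, the Notch ligand Dll4, the Notch target Hey1, the intermediate filament protein nestin (Nes) and the Hippo pathway co-activator Wwtr1. Of the listed genes, 2 of 33 Notch pathway genes (Dll4 and Hey1), 1 of 21 angiogenic signals (Dll4), 1 of 22 progenitor genes (Nes) and 0 of 33 endothelial and pericyte genes were in it. Over all genes the share was 0.595%, at which lists this short would hold few such genes or none.

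Nes, the nestin of neural progenitors, reactive glia and young endothelium, stood at 12.81 and 12.72 in Glast+ P7 and at 9.91, 9.58 and 9.92 in Glast+ P14. Notch1+ levels stood at 11.30, 11.78 and 11.69 at P7 and at 13.75, 13.41 and 12.35 at P14. No array of one age reached those of the other in either sort, which the rule that named the gene required. The fall in Glast+ cells was 7.76-fold and the rise in Notch1+ cells 2.99-fold, an interaction of −4.54 ± 0.38 (adjusted p = 3.41e-06). The other Nes probe gave −0.55.

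Mcam read 13.62 and 13.86 in Glast+ P7 against 11.24, 11.05 and 11.56 in Glast+ P14. On Notch1+ arrays it read 12.70, 13.08 and 12.66 at P7 and 14.54, 14.32 and 13.95 at P14. Glast+ cells had the higher level at P7 and Notch1+ cells at P14, without overlap at either age (interaction −3.91 ± 0.32, adjusted p = 3.41e-06). Efna1, a ligand of EphA receptors, went from 12.87 and 13.06 to 11.22, 10.43 and 11.55 in Glast+ cells. It went from 10.92, 10.90 and 10.12 to 13.14, 12.83 and 12.37 in Notch1+ cells (interaction −4.03 ± 0.41, adjusted p = 1.63e-05). The high levels of this ligand were thus those of Glast+ P7 and Notch1+ P14. Ets2 fell by 1.85 in Glast+ cells and rose by 2.15 in Notch1+ cells (interaction −4.00 ± 0.60, adjusted p = 0.000376). Tubb6, a beta-tubulin, fell by 1.37 and rose by 1.27 (interaction −2.64 ± 0.45, adjusted p = 0.00106). Nes, Mcam, Efna1, Ets2 and Tubb6 kept their opposite calls under each of 24 alternatives, including those within 1 scan day.

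Crybb3, a beta-crystallin (−3.42 ± 0.58), kept the opposite call under 22 of 24 alternatives, and Wwtr1 (−2.63 ± 0.50) under 20. Crybb3 lost it without either of the Glast+ P7 arrays. Nme2, a nucleoside diphosphate kinase with a near-identical paralog, had an interaction of −3.01 ± 0.61 with its other probe at −0.22. Fhl2, a LIM-domain cofactor, fell from 11.10 and 11.03 to 6.39, 6.47 and 7.29 in Glast+ cells, where it was thus near the bottom of the scale at P14. It rose from 6.91, 7.13 and 7.04 to 8.51, 7.81 and 7.68 in Notch1+ cells (interaction −5.32 ± 0.44, adjusted p = 3.41e-06).

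**Figure D2:**
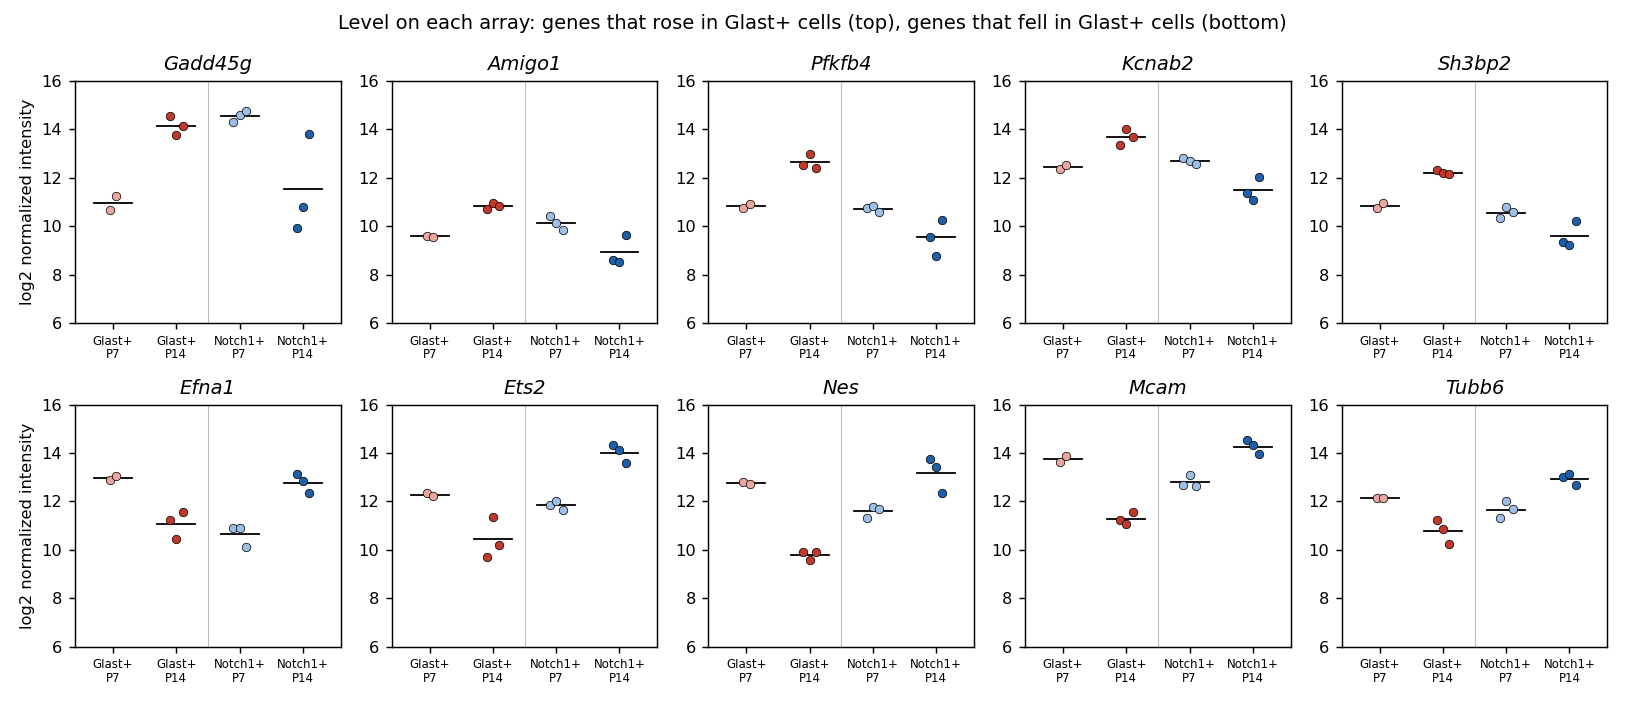
Log2 normalized intensity on each array for 10 opposite movers; points are arrays, horizontal bars group means, and the grey line separates the sorts. In the top row Glast+ P14 lies above Glast+ P7 and Notch1+ P14 below Notch1+ P7, as for Pfkfb4 with 12.42 to 12.97 against 8.78 to 10.27 at P14. In the bottom row the order is reversed. The rule that named these genes required that the ages not overlap within either sort.

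Genes of vessels rose in both sorts. Of 33 measured genes of endothelial cells and pericytes, 29 rose in Notch1+ cells (median change 2.57) and 21 rose in Glast+ cells (median 1.98), and none fell. Over all genes 14.4% rose in Notch1+ cells and 14% in Glast+ cells. The mean level of the list was 9.90 to 11.32 in Notch1+ P7 and 12.32 to 13.44 in Notch1+ P14, against 7.71 to 7.85 in Glast+ P7 and 9.38 to 9.81 in Glast+ P14. The interaction was below 0 for 8 members and above 0 for 2, beside 7.04% and 8.02% of all genes. The list's median was −0.42 beside −0.02 over all genes. That median ranged from −0.92 to 0.06 when single arrays were left out, and lay above 0 without Notch1+ P7 replicate 3. None of the 33 genes was an opposite mover, beside 0.944% of all genes. Without Glast+ P7 replicate 1, and likewise without Glast+ P7 replicate 2, 4 members were below 0. Without Notch1+ P7 replicate 3, 4 were above 0.

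Egfl7, a protein secreted by endothelium, rose by 2.26 in Notch1+ cells and measured −0.65 in Glast+ cells (interaction −2.92 ± 0.47, other probe −0.48). Igfbp7 had the reverse relation, rising by 4.1 in Glast+ cells and by 1.28 in Notch1+ cells (interaction 2.82 ± 0.51). Its Notch1+ P14 levels of 15.61, 15.31 and 15.27 were near the top of the intensity scale, where differences are compressed. Cldn5, the tight junction protein of vessels, rose by 4.20 in Glast+ cells. Its probe was saturated on every Notch1+ P14 array, so its Notch1+ ratio was at least 1.54-fold (adjusted p = 0.065) and the interaction of 3.58 may not be read as a size. Angiogenic signals rose for 12 of 21 genes in Notch1+ cells and 6 in Glast+ cells, beside 14.4% and 14% of all genes. Of their interactions 4 were below 0 and 1 above, beside 7.04% and 8.02%. Below 0 there were 6 without Notch1+ P14 replicate 3, and 2 without replicate 1 or 2 of Notch1+ P14, either Glast+ P7 array or Glast+ P14 replicate 2. Among them were Angptl4 (−2.56 ± 0.75) and Thbs2, which rose by 2.40 in Notch1+ cells.

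Matrix and basement membrane genes rose for 18 of 29 members in Notch1+ cells and for 5 in Glast+ cells, beside 14.4% and 14% of all genes. Of their interactions 7 were below 0 and 1 above, beside 7.04% and 8.02%. The laminin chains Lamb1 (−3.01 ± 0.52), Lama4 (−1.99 ± 0.47) and Lamc1 (−1.95 ± 0.47) rose in Notch1+ cells by 2.60, 2.60 and 1.99. In Glast+ cells the same chains measured −0.41, 0.61 and 0.05, none of which passed the test. Without Glast+ P7 replicate 2 the count below 0 was 3, and without replicate 1 it was 4. Above 0 there were 5 members without Notch1+ P14 replicate 3, and without Notch1+ P7 replicate 3 the number was 3.

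Of 33 Notch pathway members 8 had an interaction below 0 and 1 above 0 (median −0.33), beside 7.04% and 8.02% of all genes. The counts were 12 and 5 without Notch1+ P14 replicate 3. The pathway's genes fell for 13 members in Glast+ cells and rose for 2, while in Notch1+ cells 8 rose and 8 fell. Among the ligands, Dll4, known from the tip cells of vessels, rose by 1.78 in Notch1+ cells. In Glast+ cells it fell by 1.20 (interaction −2.98 ± 0.53, adjusted p = 0.00146, other probe −0.79), a fall with an adjusted p of 0.0563 under the replicate block. Dll3, another ligand, fell in both sorts, with changes of −3.52 in Glast+ and −3.56 in Notch1+ cells, and the interval of its interaction was −2.13 to 2.21.

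Targets of the pathway split. Heyl, a repressor induced by Notch, was at 11.89 and 11.86 in Glast+ P7 and at 6.27, 6.61 and 6.69 in Glast+ P14. In Notch1+ cells it was at 8.91, 9.13 and 10.09 at P7 and at 10.83, 8.88 and 8.84 at P14. The Glast+ ages were far apart and the Notch1+ ages overlapped, and the interaction of −5.50 ± 0.67 (adjusted p = 7.26e-05) was the most negative of the named genes. Hey1 fell by 2.23 in Glast+ cells, from 14.28 and 14.61 to 12.26, 11.59 and 12.81, and rose by 0.99 in Notch1+ cells (interaction −3.21 ± 0.49, adjusted p = 0.000436). The opposite call of Hey1 ended under 8 of 24 alternatives, among them the fit within 1 scan day. Hes1 went the other way, rising by 1.43 in Glast+ cells with 0.04 in Notch1+ cells (interaction 1.38 ± 0.35, adjusted p = 0.0135). The call of Hes1 ended under 3 of 24 alternatives, among them median scaling and the authors' values. Without Glast+ P7 replicate 1 its interaction was 1.07. Hes5 had an interaction of 1.55 ± 0.94 that was not called (adjusted p = 0.307). It read 7.44, 7.74 and 11.12 in Notch1+ P14, and without the third of these arrays its interaction was 2.72 (adjusted p = 8.22e-05). The receptor Notch1 itself fell in both sorts, with changes of −1.07 in Glast+ and −0.53 in Notch1+ cells, and its interaction of −0.54 was not called (95% confidence interval −1.13 to 0.05).

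**Figure D3:**
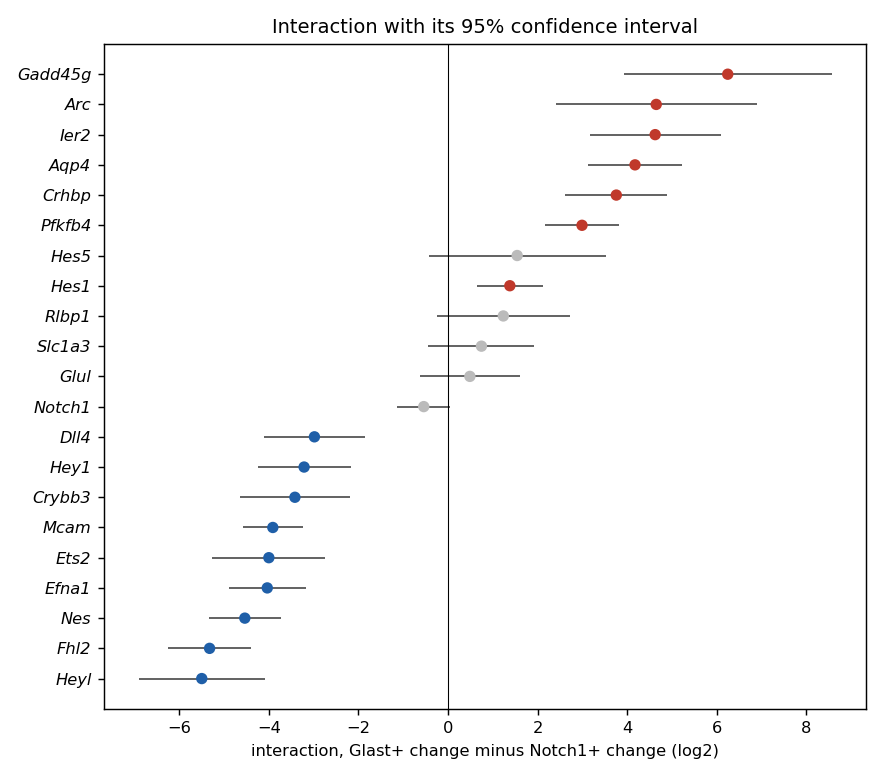
Interaction of 21 named genes with its 95% confidence interval from limma (bars), in log2 units; red and blue points passed an adjusted p of 0.05 above and below 0, and grey points did not. Hes1 lies above 0 and Hey1, Heyl and Dll4 below it, while the intervals of Notch1, Hes5, Slc1a3, Rlbp1 and Glul include 0.

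Mitotic genes fell in Glast+ cells and for the most part had no called change in Notch1+ cells. Over all genes 13.5% fell in Glast+ cells and 13.8% in Notch1+ cells, and 7.04% had an interaction below 0. The list of mitosis and G2/M held 35 measured genes, of which 28 fell in Glast+ cells (median −1.81) and 3 in Notch1+ cells (median −0.18), none rose in either, and 21 had an interaction below 0, with a median of −1.50. With all arrays in the fit this was the largest share of called interactions among the 34 lists. It was also 21 of 35 without Notch1+ P14 replicate 3, and the share was then larger for microglial genes (15 of 20) and Müller genes (20 of 33). The list's mean level was 9.40 and 9.62 in Glast+ P7 and 7.94, 7.84 and 7.61 in Glast+ P14. The Notch1+ arrays gave 9.44 to 10.29 at P7 and 9.33 to 9.82 at P14, ranges that overlap. Top2a, which untangles DNA before division, fell by 2.71 in Glast+ cells and measured −0.29 in Notch1+ cells (interaction −2.42 ± 0.31, adjusted p = 0.000114). Ttk, a kinase of the spindle checkpoint (−1.95 ± 0.25), and Kif23, a kinesin of cytokinesis (−2.38 ± 0.35), behaved alike. Leaving out single arrays gave 14 to 26 members below 0, the lowest without Glast+ P7 replicate 2.

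DNA replication followed the same pattern, with 19 of 32 members falling in Glast+ cells, 3 falling and 3 rising in Notch1+ cells, and 13 interactions below 0 (median −0.97). The shares of all genes were 13.5% falling in Glast+ cells, 13.8% falling and 14.4% rising in Notch1+ cells, and 7.04% below 0. Rrm2, a subunit of ribonucleotide reductase, fell by 2.48 in Glast+ cells with 0.00 in Notch1+ cells (interaction −2.48 ± 0.41, with another of its 4 probes at −0.19). Mcm2, part of the replicative helicase (−2.34 ± 0.42), and Uhrf1, which maintains DNA methylation (−2.60 ± 0.42), did likewise. The count below 0 was 7 with each sort within 1 scan day. It was also 7 without Notch1+ P7 replicate 1, without Notch1+ P14 replicate 2, and without either Glast+ P7 array. Of 7 CDK inhibitors 1 was called, Cdkn2b, which rose by 2.24 in Notch1+ cells (interaction −2.35 ± 0.47). Cdkn1b measured −0.58 and −0.46, neither called. Ccnd1, the D-type cyclin of retinal progenitors, fell by 1.39 in Glast+ cells and at least 1.68-fold in Notch1+ cells, where its probe was saturated at P7. Its interaction of −0.64 was not called, but was called under 3 of 24 alternatives. Its dimmer probes gave interactions of −1.50, −1.48 and −1.10, with Glast+ changes of −2.37, −2.59 and −2.05. Among 25 genes of chromatin and DNA methylation 9 fell in Glast+ and 6 in Notch1+ cells, and Uhrf1 and the demethylase gene Kdm1a (1.28 ± 0.37) had called interactions, the latter ending under 9 of 24 alternatives.

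Progenitor and neurogenic genes for the most part fell in Notch1+ cells, but few had a called difference between the sorts. Of 22 progenitor genes 14 fell in Notch1+ cells and 5 in Glast+ cells, beside 13.8% and 13.5% of all genes, with 2 interactions above 0 (Fzd5, and Sox8 with a call that ended under 14 of 24 alternatives) and 1 below (Nes). Of 24 neurogenic factors 15 fell in Notch1+ and 8 in Glast+ cells. Of these, 3 had an interaction above 0, among them Gadd45g and Btg2, an anti-proliferative gene (3.28 ± 0.92), and 1 below, Dll4. The called interactions, 3 of 22 and 4 of 24, were near the 15.1% of all genes. Without Notch1+ P14 replicate 3 the interactions above 0 were 11 in the progenitor list and 10 in the neurogenic list. Leaving out other arrays brought either count down to 1 at the lowest.

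Müller glial genes had interactions above 0 for 5 of 33 members and below 0 for none (median 0.80). That called share was near the 15.1% of all genes (8.02% above 0, median −0.02). In Glast+ cells 11 rose and none fell, and in Notch1+ cells 7 rose and 5 fell. The mean level of the list was 12.88 and 13 in Glast+ P7 and 13.74 to 13.93 in Glast+ P14. It was 12.07 to 12.23 in Notch1+ P7 and 12.07, 11.28 and 12.90 in Notch1+ P14, with the highest value on replicate 3. Without that array 20 members had an interaction above 0, and without Glast+ P7 replicate 1 the number was 3.

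Aqp4, the water channel of Müller end-feet and astrocytes, read 6.86 and 7.36 in Glast+ P7 and 13.11, 13.38 and 13.77 in Glast+ P14. In Notch1+ cells it read 7.04, 6.83 and 6.54 at P7 and 9.80, 7.93 and 9.07 at P14. It thus rose in both sorts, 79.5-fold in Glast+ cells and 4.39-fold in Notch1+ cells (interaction 4.18 ± 0.50, adjusted p = 6.81e-05, another probe at −0.08). Abca8a, a lipid transporter of glia, rose by 5.12 and 2.47 (interaction 2.65 ± 0.49). Spc25, listed with Müller genes and otherwise known as a kinetochore subunit, rose by 1.51 in Glast+ cells with −0.02 in Notch1+ cells (interaction 1.53 ± 0.33).

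Several classical glial markers had no called interaction. Slc1a3 gave 0.75 ± 0.56 (adjusted p = 0.431) near the top of the intensity scale, where differences are compressed. Rlbp1, a retinoid-binding protein of Müller glia, gave 1.24 ± 0.70. Glul, glutamine synthetase, rose in both sorts by 1.61 and 1.12, with an interaction of 0.49 (95% confidence interval −0.63 to 1.61). Sox9, a glial transcription factor, gave 0.57 ± 0.48, and the filament gene Vim gave −0.65 ± 0.25 (adjusted p = 0.0911). Without Notch1+ P14 replicate 3, interactions were called for Slc1a3 (1.32, adjusted p = 0.0226), Rlbp1 (1.85, adjusted p = 0.0272) and Sox9 (1.10, adjusted p = 0.0114).

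Of all genes, 8.02% had an interaction above 0 and 7.04% below 0. Among 22 genes of glial transport 4 had an interaction above 0 and none below. The 4 included the sodium pump subunit Atp1b2 (2.03 ± 0.50) and the GABA transporter Slc6a11 (1.81 ± 0.55, a call that ended under 11 of 24 alternatives). The counts were 7 above and 1 below without Notch1+ P14 replicate 3, and 1 and 1 within 1 scan day. The count above 0 was 1 without Glast+ P7 replicate 2, and 2 without Notch1+ P7 replicate 1 or 3, Notch1+ P14 replicate 2, Glast+ P7 replicate 1 or Glast+ P14 replicate 3. Astrocyte genes had 4 of 13 above 0, with Agt, angiotensinogen, rising by 3.26 and 0.65 (interaction 2.61 ± 0.34, adjusted p = 0.000133) and S100b by 1.38 in Glast+ cells. The S100b probe was not found on any Notch1+ P7 array, and its Notch1+ ratio was at least 1.15-fold without a call. Gfap was found on no Notch1+ array. In Glast+ cells it rose by 2.14, from 7.03 and 7.09 to 9.21, 7.42 and 10.96, with a wide spread at P14. Reactive gliosis genes had 6 of 22 above 0 and 1 below, including the protease inhibitor A2m (2.88 ± 0.37) and the cytokine Cntf (1.86 ± 0.33, other probe −0.13). Without Notch1+ P14 replicate 1, and likewise without replicate 2 or either Glast+ P7 array, 3 were above 0.

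**Figure D4:**
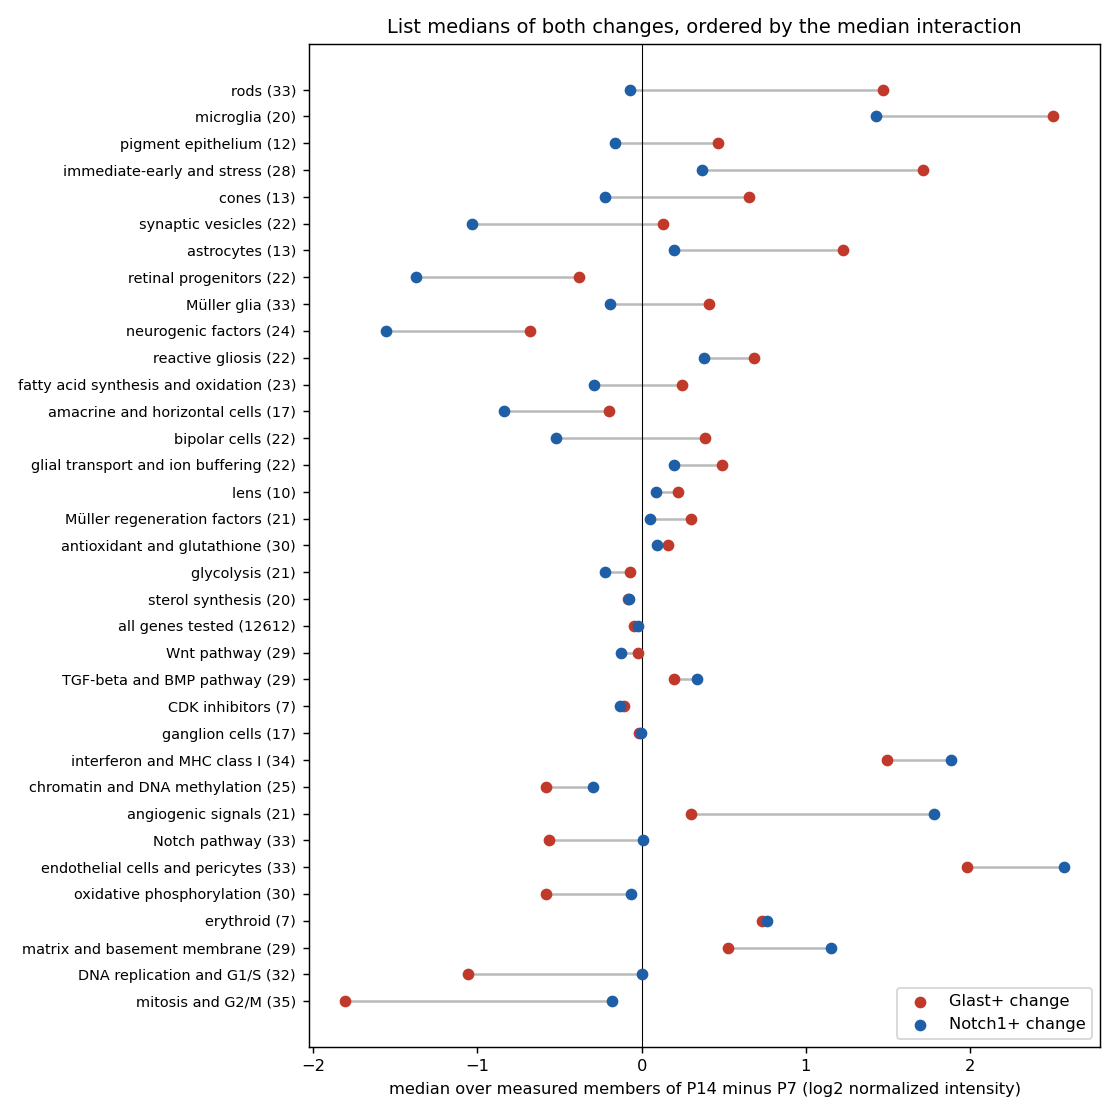
Median change from P7 to P14 over the measured members of each gene list (number in parentheses), in Glast+ (red) and Notch1+ cells (blue), as log2 differences; rows are ordered by the median interaction, which need not equal the gap between the 2 medians. Mitosis lies at the bottom with −1.81 against −0.18 and rods at the top with 1.47 against −0.07; the row of all genes tested lies near 0 in both.

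Immediate-early and stress genes rose for 17 of 28 members in Glast+ cells and for 8 in Notch1+ cells, beside 14% and 14.4% of all genes. Of their interactions 9 were above 0 and none below (median 1.22), beside 8.02% and 7.04%. The mean level of the list was 11.49 and 11.67 in Glast+ P7 and 13.05 to 13.67 in Glast+ P14, and 11.02 to 11.24 rising to 11.49 to 11.87 in Notch1+ cells. Such genes respond within minutes to handling of cells, and the part of the sort procedure was not tested. Ier2, an immediate-early gene, rose by 4.80 in Glast+ cells, from 7.66 and 8.27 to 12.15, 12.25 and 13.90. In Notch1+ cells it read 9.64, 9.52 and 9.23 at P7 and 10.03, 8.47 and 10.40 at P14, an overlap (interaction 4.63 ± 0.69, adjusted p = 0.000378). Arc, a synaptic activity gene outside the list, had an interaction of 4.65 ± 1.06 (adjusted p = 0.00775), which within 1 scan day was not called (adjusted p = 0.0528).

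Jun, a subunit of the AP-1 factor (2.53 ± 0.45), and the heat shock gene Hspa1a (3.72 ± 0.83), which has a near-identical copy, also had interactions above 0. The list's count above 0 was 4 within 1 scan day and 4 without either Glast+ P7 array. It was 5 without Notch1+ P14 replicate 1.

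Microglial genes rose in both sorts, 19 of 20 in Glast+ cells (median 2.50) and 16 in Notch1+ cells (median 1.43). Over all genes these shares were 14% and 14.4%. Of the list's interactions 7 were above 0 and none below, beside 8.02% and 7.04% of all genes. The mean level was 10.55 and 10.87 in Glast+ P7 and 13.04 to 13.66 in Glast+ P14. In Notch1+ cells it was 8.85 to 9.25 at P7 and 10.20, 9.66 and 11.31 at P14. Tmem119, a microglial surface protein, rose by 5.05 and 2.11 (interaction 2.94 ± 0.42, adjusted p = 0.00026). Its levels in Glast+ P14 were 14.78, 15.24 and 14.59, far above the 9.59 to 10.30 of Notch1+ P14. Spi1, the myeloid transcription factor PU.1 (2.53 ± 0.32), and the purine receptor P2ry13 (2.93 ± 0.48) differed in the same direction. The number above 0 was 15 without Notch1+ P14 replicate 3.

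Interferon and MHC class I genes rose widely in both sorts, 21 of 34 in Glast+ and 28 in Notch1+ cells. Of all genes 14% and 14.4% rose. H2-K1, an MHC class I heavy chain with close relatives, rose by 3.37 and 2.03 (interaction 1.34 ± 0.37). Ifi44 rose by 2.49 in Notch1+ cells (interaction −2.20 ± 0.38), as did Isg20 by 2.23 (−1.86 ± 0.55). Those were the 3 called interactions of the list with all arrays, a share below the 15.1% of all genes. The call of Isg20 ended under 9 of 24 alternatives. The list had 1 above and 7 below 0 without Notch1+ P14 replicate 3, and 3 above and 2 below without Glast+ P14 replicate 3. Leaving out any other single array than Notch1+ P7 replicate 3 or Glast+ P14 replicate 1 left 1 below 0.

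Rod genes had a median interaction of 1.83, with 6 of 33 above 0 and none below, beside 8.02% and 7.04% of all genes. In Glast+ cells 14 rose and in Notch1+ cells 3 rose and 2 fell. The list's mean level ranged widely within groups, at 10.70 and 9.37 in Glast+ P7, 11.72, 12.54 and 11.00 in Glast+ P14, 11.87, 11.14 and 10.58 in Notch1+ P7 and 11.71, 10.50 and 11.42 in Notch1+ P14. None of the 33 was called with each sort within 1 scan day, a fit with fewer Notch1+ arrays, or without Glast+ P7 replicate 2. With scan day as a block and all arrays kept, 7 were above 0. The calls were 1 without Notch1+ P14 replicate 2 and 1 without Glast+ P14 replicate 2, 2 without Notch1+ P7 replicate 1 or 2, 3 without Glast+ P14 replicate 1, and 10 without Glast+ P7 replicate 1 or Glast+ P14 replicate 3. Guca1b, a guanylate cyclase activator of photoreceptors, rose by 5.62 and 2.18 (interaction 3.45 ± 1.0), a call that ended under 11 of 24 alternatives. Susd3 (2.49 ± 0.60) and Rom1, a disc rim protein (1.77 ± 0.53), were the other named members, the latter with an adjusted p of 0.0503 under the replicate block and no call under 12 of 24 alternatives. No interaction was called among 13 cone genes (median 1.22), and 2 were without Notch1+ P14 replicate 3 or Glast+ P7 replicate 1.

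Synaptic vesicle genes fell for 11 of 22 members in Notch1+ cells and for 1 in Glast+ cells, beside 13.8% and 13.5% of all genes. Of their interactions 5 were above 0 and 1 below, beside 8.02% and 7.04%. Cplx1, a complexin of conventional synapses (2.21 ± 0.56), and Cplx4, a complexin of photoreceptor and bipolar ribbons (2.95 ± 0.79), were above 0. Stx1a, a syntaxin, was below (−1.86 ± 0.50), rising by 1.90 in Notch1+ cells. The count above 0 was 12 without Notch1+ P14 replicate 3, 2 without Notch1+ P7 replicate 1, 8 without Glast+ P14 replicate 3, 3 without replicate 2 of Notch1+ P7, Notch1+ P14 or Glast+ P14, and 0 without Glast+ P7 replicate 2 or within 1 scan day.

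Bipolar genes had 3 of 22 above 0, namely Lhx4 (3.19 ± 0.84), Nyx (2.26 ± 0.56) and Fezf2 (2.07 ± 0.62), the last with an adjusted p of 0.0529 under the replicate block and no call under 10 of 24 alternatives. Of 17 amacrine and horizontal cell genes, Meis2 (2.53 ± 0.67) and the glycine transporter Slc6a9 (2.05 ± 0.65, adjusted p = 0.0722 under the block, other probe −0.09) were above 0 and Ebf1 below (−2.51 ± 0.47), rising by 2.30 in Notch1+ cells. The call of Slc6a9 ended under 15 of 24 alternatives, and its interaction was 1.17 without Glast+ P7 replicate 2. Among 17 ganglion cell genes Thy1 (2.99 ± 0.80, other probe 0.16) was above and Uchl1 (−2.33 ± 0.36) below. The called shares of these 3 cell type lists were near the 15.1% of all genes. No member of the bipolar list was called within 1 scan day. Leaving out single arrays gave 0 to 6 bipolar, 0 to 5 amacrine and horizontal, and 0 to 2 ganglion cell genes above 0, the highest counts without Notch1+ P14 replicate 3.

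Metabolic lists were near or below the 15.1% of called interactions among all genes. In fatty acid metabolism 4 of 23 members were above 0 and 9 fell in Notch1+ cells. Without Notch1+ P14 replicate 3 the list had 9 above and 3 below 0, without Glast+ P7 replicate 1 it had 2 above and without Glast+ P7 replicate 2 it had 1. The members above 0 included the desaturases Scd1 (1.83 ± 0.34) and Fads2 (1.70 ± 0.47) and the ligase Acsl6 (2.11 ± 0.50). Glycolysis had 2 of 21, Hk2 and Ldhb (1.28 ± 0.36), with 4 above and 2 below without Notch1+ P14 replicate 3. Oxidative phosphorylation fell for 8 of 30 in Glast+ cells and for none in Notch1+ cells, with a median interaction of −0.55 and 1 call, Cox5a (−1.18 ± 0.26). In sterol synthesis Stard4 was below 0 (−2.20 ± 0.57). Antioxidant genes had 2 above 0, Gstt1 (2.17 ± 0.41) and the metallothionein Mt2 (2.77 ± 0.68), and 2 below, among them Gsta4 (−0.76 ± 0.22), and under the block 2 above and 0 below. The call of Gsta4 ended under 12 of 24 alternatives. Without Notch1+ P14 replicate 3 the list had 4 above and 3 below 0.

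Other signalling lists were mixed. Over all genes 8.02% had an interaction above 0 and 7.04% below. TGF-beta and BMP genes had 3 of 29 on each side, with Bmp7 (1.07 ± 0.23) and its receptor Bmpr1b (2.27 ± 0.52, another probe at 0.23) above 0 and Smad5 (−1.15 ± 0.23) below. The counts were 6 above and 7 below without Notch1+ P14 replicate 3, and 1 was below without Notch1+ P14 replicate 2 or Glast+ P7 replicate 1. Wnt genes had 4 of 29 above, among them Fzd5 and Wnt5a (1.44 ± 0.30), and 2 below, among them Fzd1 (−1.39 ± 0.30), with 7 above and 4 below without Notch1+ P14 replicate 3 and 2 above and 1 below without Glast+ P7 replicate 1. Regeneration factors had Cntf and Ccn1 (3.3 ± 0.78) above and Wwtr1 below, with 2 above and 3 below under the block, and 6 and 2 without Notch1+ P14 replicate 3. Pigment epithelium genes had 3 of 12 above, Ttr (3.16 ± 0.79), Dct (2.47 ± 0.79) and Mitf (1.08 ± 0.35), and 1 under the block. The call of Mitf ended under 19 of 24 alternatives and that of Dct under 13. None of the 12 was called within 1 scan day or without Glast+ P7 replicate 2, and 5 were called without Notch1+ P14 replicate 3. Any other single omission but those of Glast+ P7 replicate 1 and Glast+ P14 replicates 1 and 3 left 1. Lens genes had Crybb1 (2.24 ± 0.53) above and Crybb3 below. None of 7 erythroid genes was called.

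**Figure D5:**
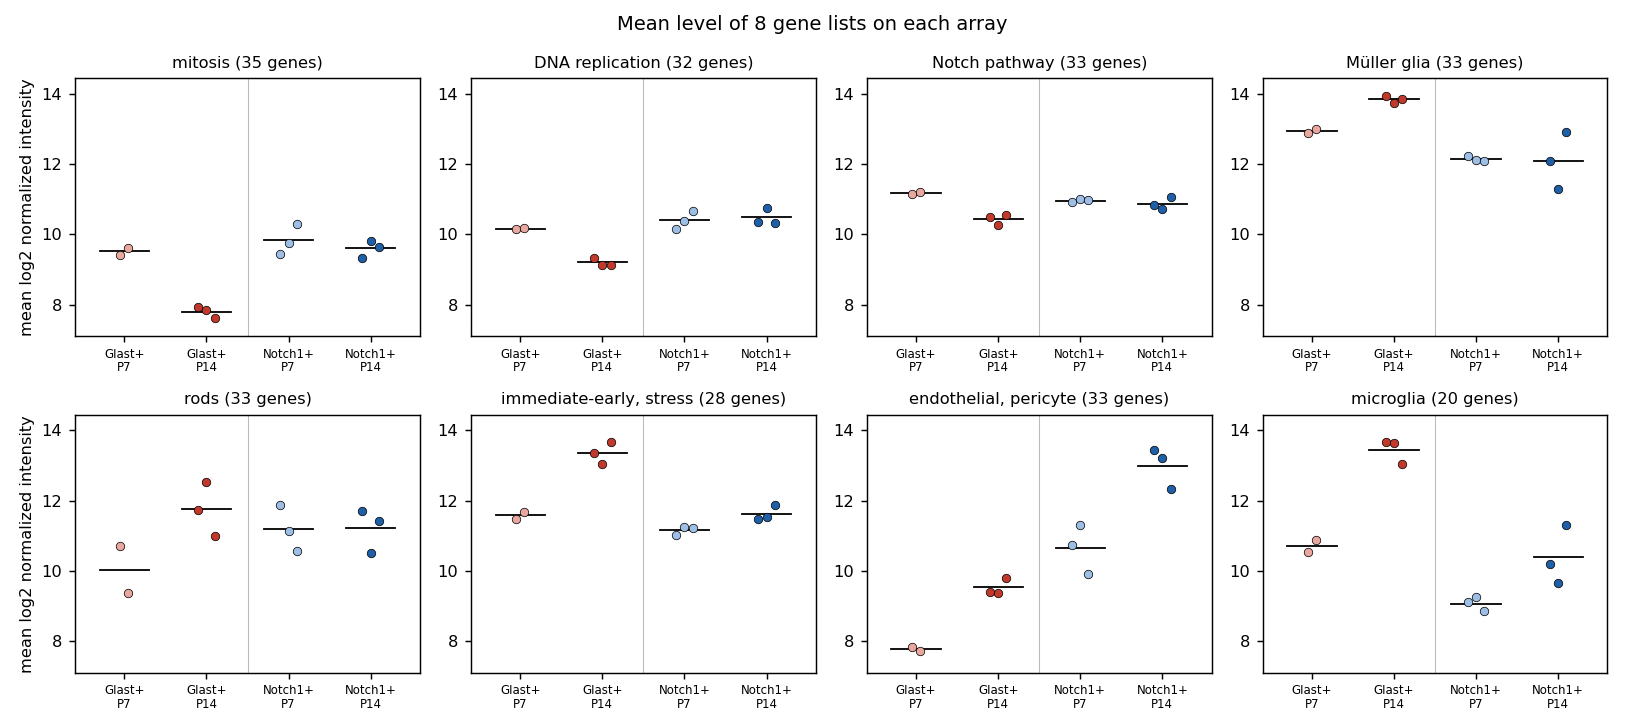
Mean log2 normalized intensity of 8 gene lists on each array (points) with group means (bars), by sort and age. The mitosis list lies at 7.61 to 7.94 in Glast+ P14, below the 3 other groups, vessel genes are highest on the Notch1+ P14 arrays, and microglial genes are highest on the Glast+ P14 arrays.

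The rule for the largest interactions also named Pcolce2 and Crhbp, which rose in Glast+ cells. Pcolce2, an enhancer of procollagen processing, was not found on either Glast+ P7 array and read 10.70, 11.22 and 11.88 at P14, a rise of at least 27.7-fold (adjusted p = 9.6e-08). In Notch1+ cells it measured 0.79, which was not called, and its other probe gave an interaction of 0.43 against 4.0 ± 0.49. Crhbp, the binding protein of corticotropin-releasing hormone, rose by 4.32 in Glast+ cells and measured 0.56 in Notch1+ cells (interaction 3.76 ± 0.54, adjusted p = 0.000279).

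Genes with the largest shared changes had no called interaction. Wfdc1, a secreted protease inhibitor, rose by 4.52 in Glast+ and 3.98 in Notch1+ cells, Vtn, vitronectin, by 4.13 and 3.91, and Mgp, a matrix protein of vessels, by 3.90 and 4.75. Col8a1, a collagen of vessels, was not found at P7 in either sort and rose at least 13-fold in Glast+ and at least 14.5-fold in Notch1+ cells. Fabp7, a fatty acid binding protein of radial glia, changed by −3.77 in Glast+ and −4.66 in Notch1+ cells, Chrna4, a nicotinic receptor subunit, by −3.73 and −3.71, and Epha8, an ephrin receptor, by −3.25 and −4.15, all of them called falls. The intervals of these interactions were wide, for Fabp7 from −1.87 to 3.66. Without Notch1+ P14 replicate 3, whose Fabp7 level of 12.88 lay far above 8.29 and 7.61, the interaction of Fabp7 was 2.54 (adjusted p = 0.00273) and that of Epha8 was 1.88 (adjusted p = 0.0274).

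Promoter windows of the opposite movers were searched for short motifs known for factors of this tissue, 250 bases before to 50 after each RefSeq start site (GRCm38.p6). Both strands were searched for TGGGAA (the Notch effector RBPJ), CACGTG (an E-box), CAGATG (proneural factors), TGACGTCA (CREB), CTAATCC (the photoreceptor factor CRX) and ACAAAG (SOX factors). Windows were found for 38 of the 44 genes that rose in Glast+ cells (51 windows, since a gene can have several) and for 62 of the 75 that fell (87 windows). TGGGAA was in 23.6% of windows of all genes tested, 23.5% of those of the first group and 23% of the second. CACGTG was in 9.24%, 11.8% and 4.60%, TGACGTCA in 2.71%, 0% and 3.45%, and CTAATCC in 2.11%, 0% and 2.30%. CAGATG was in 12.6%, 9.80% and 12.6%, and ACAAAG in 15.1%, 15.7% and 10.3%. A match is a run of letters and not a shown binding site. The windows of Gadd45g (chr13:51846425-51846724, plus strand) and Mcam (chr9:44134408-44134707, plus strand) are shown as leading genes of either direction, 5′ to 3′, with matches in capitals. They are CACGTG 142 bases before and TGGGAA 35 bases after the start of Gadd45g, and TGACGTCA 29 bases before that of Mcam.
Gadd45g: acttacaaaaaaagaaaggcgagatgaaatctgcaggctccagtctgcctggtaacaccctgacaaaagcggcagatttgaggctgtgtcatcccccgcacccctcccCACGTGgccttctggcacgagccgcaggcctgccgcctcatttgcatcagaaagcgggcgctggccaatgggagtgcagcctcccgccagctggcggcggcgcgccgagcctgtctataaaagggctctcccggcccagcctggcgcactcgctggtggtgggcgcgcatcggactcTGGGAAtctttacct
Mcam: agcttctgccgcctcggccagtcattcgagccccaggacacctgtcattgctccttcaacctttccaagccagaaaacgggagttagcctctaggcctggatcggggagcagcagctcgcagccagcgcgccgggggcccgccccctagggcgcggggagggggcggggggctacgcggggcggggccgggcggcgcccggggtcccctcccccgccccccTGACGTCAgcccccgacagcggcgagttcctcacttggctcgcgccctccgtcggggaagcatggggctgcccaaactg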

How the data were processed

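Per the file headers, the deposited scanner files hold spot and background intensity in scanner units, read with GenePix Pro 4.1.1.4 at a detector setting of 650 without normalization. The authors' deposited value table is a linear intensity, equal to spot minus background intensity, floored, and multiplied by a constant of each array (0.327 to 2.53), with at most 4 spots per array off by over 1%. The tool behind it is not given in the sources used here. Levels were recomputed from the scanner files by normexp background correction (offset 50) over 38880 spots and quantile normalization of 34312 transcript probes on the log2 scale. A probe was kept if found on every array of at least 1 of 8 groups (25264 probes). Of the transcript probes 22987 had 1 symbol and 11325 none, by matching accessions to a RefSeq table of GRCm38.p6. Each gene was represented by its brightest kept probe (12612 genes, 4015 with several probes).

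One limma 3.58.1 model (R 4.3.3) with a mean per group over 21 arrays (13 residual degrees of freedom) gave the interaction and both changes, with Benjamini-Hochberg adjustment over all genes. The spread behind the p-values is that between arrays, pooled over groups. Ratios written as "at least" divide the mean of the brighter group by the lowest found signal of the dimmer one, or by its own signal if higher, or use a saturated probe (65535) at its value. The script was tested on simulated data.

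The comparison, the 34 gene lists (855 genes) and the rule for named genes were chosen with earlier results of these data known. The rule takes up to 10 opposite movers per direction with the largest smaller change, no overlap of ages and probes found in the brighter groups, then 6 genes per direction with the largest interaction, 4 per direction with the largest shared change, up to 3 called members per list, and a set of glial and Notch genes (117 genes in all, of which some are not reported here). Where probes of a named gene span over 2 (11 of 30 genes with several probes), the furthest value is given.

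Whether equal replicate numbers pair arrays was checked by the correlation of their deviations from group means, which was 0.285, 0.598 and 0.325 between Notch1+ P7 and P14, and −0.075 and −0.202 between Glast+ P7 and P14. Replicate 2 of both Notch1+ ages was scanned on 1 day and replicates 1 and 3 on another. For the Notch1+ arrays pairing and scan day therefore cannot be told apart. Alternatives were a fit with the replicate number as a block, other scalings, filters, priors, probe summaries, scan-day settings and the omission of each of 11 arrays. RefSeq promoter windows and figures used Python 3.11.15, pandas 2.3.3 and matplotlib 3.10.9; data.table (1.17.8) and jsonlite (2.0.0) were used in R.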

Additional observations from a re-analysis of the deposited data

Results flagged for a closer look

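The change from P7 to P14 differed between the sorts, by the test of the difference itself, for 1899 genes, and 119 of these changed in opposite directions. With 2 or 3 arrays per group no test for an outlying value was made within groups. No explanation was weighed.

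A called interaction is part of the definition of an opposite mover, so the values here are a description. Among those that rose in Glast+ cells, the log2 interaction was 6.25 for Gadd45g, 2.99 for Pfkfb4, 2.54 for Hk2, 2.54 for Cacna1g, 2.47 for Amigo1, 2.42 for Kcnab2, 2.35 for Cd72, 2.34 for Sh3bp2, 2.24 for Arl4c, 2.21 for Smim10l2a, 1.99 for Slc25a33 and 1.84 for Fzd5. All 3 calls with opposite signs held under 24 of 24 alternatives for Pfkfb4, 23 for Kcnab2, Sh3bp2 and Slc25a33, 22 for Gadd45g and Amigo1, 20 for Smim10l2a, 18 for Cd72, 17 for Hk2, 16 for Arl4c and Fzd5, and 7 for Cacna1g.

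Among those that fell in Glast+ cells, it was −5.32 for Fhl2, −4.54 for Nes, −4.03 for Efna1, −4.00 for Ets2, −3.91 for Mcam, −3.42 for Crybb3, −3.21 for Hey1, −3.01 for Nme2, −2.98 for Dll4, −2.64 for Tubb6 and −2.63 for Wwtr1. The opposite calls held under 24 alternatives for Nes, Efna1, Ets2, Mcam and Tubb6, 22 for Crybb3, 21 for Fhl2, 20 for Wwtr1, 17 for Nme2, 16 for Hey1 and 15 for Dll4.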

How the results depend on the processing

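The number of called interactions (1899) stayed within 1.5 times under the scalings, filters, priors and blocks tried other than median scaling (784), a fit of the 4 compared groups alone (929) and each sort within 1 scan day (1093). Opposite movers (119) numbered 42, 60 and 61 under the same settings and 33 where both changes had to exceed 1 on the log2 scale. That size requirement left 2209 Glast+ and 2088 Notch1+ changes, and 2306 Notch1+ changes were called within 1 scan day. With the replicate block, whose numbers pair the Notch1+ arrays, there were 1681 interactions and 105 opposite movers, and with scan day as a block 2334 and 168. Leaving out single arrays gave 972 to 3014 interactions, 61 to 257 opposite movers, 2032 to 3934 Glast+ and 2543 to 4253 Notch1+ changes. The low ends came without Glast+ P7 replicate 2, or for Notch1+ changes without Notch1+ P14 replicate 1, and the high ends without Notch1+ P14 replicate 3. Without Notch1+ P7 replicate 1 opposite movers numbered 76, and without Glast+ P7 replicate 1 there were 1156 interactions and 2143 Glast+ changes. The cause was not tested. Where the fit holds fewer arrays, fewer degrees of freedom remain.

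Direction turned only for interactions not called in the main fit, among them those of Fabp7 (0.90), Slc1a3 (0.75), Sox9 (0.57) and Wfdc1 (0.54). With the authors' values Slc1a3 (−0.12), Sox9 (−0.18) and Vtn (−0.04) turned. Chrna4 turned with median scaling (0.01), cyclic loess (0.11) and normalization within each sort (0.13). Wfdc1 turned with loess (−0.04) and within each sort (−0.22). Col8a1 (0.02) and Dll3 (−0.21) turned with the replicate block, and Col8a1 (0.08), Dll3 (−0.16) and Vtn (−0.26) within 1 scan day. Leaving out single arrays, Cdkn1b ranged from −0.39 to 0.14, Chrna4 from −0.74 to 1.05, Col8a1 from −1.31 to 0.79, Dll3 from −0.60 to 1.25, Fabp7 from −0.10 to 2.54, Vtn from −0.78 to 1.23 and Wfdc1 from −0.28 to 1.03. Over all named genes and alternatives, 2503 values kept direction and call, 256 lost the call, 13 gained one and 36 reversed. The block ended the opposite calls of Cacna1g and Dll4 and, among the genes named here, the interactions of Dct, Fezf2, Gsta4, Mitf, Rom1 and Slc6a9. Averaging the probes of a gene moved some interactions by over 1.5 times, to 2.46 for Aqp4, 2.21 for Pcolce2, 1.57 for Thy1, 1.15 for Acsl6, 1.10 for Smim10l2a, 1.09 for Fads2, 1.06 for Bmpr1b, 1.05 for Fzd5, 0.98 for Slc6a9, 0.86 for Cntf, 0.72 for Mitf, −1.22 for Rrm2, −1.62 for Nme2, −1.70 for Egfl7, −1.88 for Dll4 and −2.54 for Nes, and ended the calls of Smim10l2a, Fads2, Slc6a9 and Dct. Other such moves were Gsta4 (−1.22) and Ldhb (0.76) with the authors' values, S100b with median scaling (0.65) and loess (0.73), Scd1 with loess (1.13), Mitf within 1 scan day (0.69) and Rom1 without Glast+ P7 replicate 2 (1.13). Probes dim on most Notch1+ arrays, or near saturation, compress differences.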

Other observations

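A called interaction did not always come with a change called in either sort: 41 genes with an interaction above 0 and 33 below 0 had neither. Another 166 genes changed in the same direction in both sorts by different amounts. Of these, 134 rose more in Glast+ cells, 13 rose more in Notch1+ cells, 16 fell more in Glast+ cells and 3 fell more in Notch1+ cells.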
